A study of Homo sapiens with 9 samples.

Results

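The 8 genes ACKR3, BCHE, CAMK2N1, PEG3, GASK1B, MANEA, MMP16 and MYRIP were examined in LNCaP cells, where they were high on the arrays labelled with the synthetic androgen R1881 and low on most arrays of cells that also received gedunin. They were chosen from these same measurements, because they were far higher on the arrays labelled R1881 than on the arrays labelled vehicle or far lower on the gedunin arrays. The 8 genes are read by 12 probe sets with 1 gene symbol, and a further probe set is annotated to both PEG3 and ZIM2. In all, 11963 genes had such a probe set with 1 symbol, and 22215 probe sets were tested. Where the gedunin arrays lay against the vehicle level set no limit in that choice, but it was known when the genes were proposed. This comparison, tested below, is the sum of the differences used for the choice. Its p-values and counts for the members are therefore not independent of the choice.

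LNCaP is a human prostate cancer line, established from a lymph node metastasis, that carries an androgen receptor and responds to androgen. All cells were first kept for 2 days in RPMI with 10% charcoal-stripped serum, a medium low in steroids. The arrays labelled vehicle received ethanol and DMSO for 24 h. The arrays labelled R1881 received 1 nM R1881, a synthetic androgen that cells do not metabolise, and DMSO, for 6 h by their titles and 24 h by their descriptions. The gedunin arrays received 1 nM R1881 and 20 µM gedunin for 24 h, and no group received gedunin alone. Each group had 3 arrays marked as biological replicates, all from 1 cell line, and the labels do not say how the cultures were kept apart. In lysates of whole cultures, fewer cells of a kind and less RNA per cell cannot be told apart.

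The androgen receptor is a transcription factor that enters the nucleus when it binds hormone. It activates some genes, such as the kallikreins of prostate secretion, and represses others, among them several genes described here. Gedunin, a limonoid from plants, is known to inhibit the chaperone HSP90, which holds steroid receptors in the shape that binds hormone.

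The array labels and the androgen genes ran in opposite directions. FKBP5, a co-chaperone gene induced by androgen, measured 1815 ± 147 on the arrays labelled vehicle, 45.1 ± 3.15 on those labelled R1881 and 122 ± 16 on the gedunin arrays (RMA intensity, mean ± SD, n = 3). All 7 measured androgen-induced check genes, KLK2, KLK3 and TMPRSS2 among them, were lower on the arrays labelled R1881 in limma. The 8 genes were high on the arrays labelled R1881, where these check genes were low, so their name as androgen-repressed genes rests on background knowledge and goes against the labels. On the gedunin arrays the check genes were still below vehicle, 7 of 7 in limma. Groups are therefore called by their labels, and every direction that involves the labelled vehicle or labelled R1881 arrays carries this doubt. The check of cell identity gave luminal genes such as KRT18 and HOXB13 at group means between 280 and 8623, but all 6 were called between gedunin and vehicle arrays, 2 higher and 4 lower. KRT8, a luminal keratin, was 7.87-fold lower and KRT18 4.40-fold lower on labelled R1881 than on vehicle arrays (limma, adjusted p = 2.00e-11 and 3.97e-11), and the part of this in the members' values was not tested. Of 15 measured markers of leukocytes, fibroblasts, basal and neuroendocrine cells, 9 lay under the lowest array median of 52.4 in every group. Between gedunin and vehicle arrays 0 of the 15 were called (limma, with 0 at an unadjusted p under 0.05), where 23.5% of all probe sets were. Between labelled R1881 and vehicle 0 were called (3 at an unadjusted p under 0.05), where 27.0% of all probe sets were. Between gedunin and labelled R1881 1 was called, CHGB at 0.17 ± 0.06 (adjusted p = 0.0424), where 24.3% of all probe sets were. Every group mean of CHGB lay under 52.4.

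The gedunin arrays fell into 4 kinds of position. ACKR3 and BCHE stopped well above the level of the arrays labelled vehicle, MANEA and GASK1B stopped slightly above it, MYRIP lay on it, and CAMK2N1 and PEG3 passed it and lay below. MMP16 lay slightly below it by 2 of its 4 probe sets. Here and below, stopped, came back and passed describe positions between groups as labelled, not a course seen in time. Were the labelled vehicle and labelled R1881 groups exchanged, the gedunin arrays would lie near the androgen level for MYRIP. They would then lie below the androgen level for CAMK2N1 and PEG3. In limma with Benjamini-Hochberg adjustment over all probe sets, 4 of the 12 member probe sets lay above labelled vehicle on the gedunin arrays, where 12.9% of all probe sets were. A further 5 of 12 were lower, where 10.6% of all probe sets were, and 3 were not called. By the brightest probe set of each gene, 4 of 8 were higher, 3 lower and 1 not called. In either direction 23.5% of all probe sets were called. The median log2 difference was -0.03 over the 12 probe sets and -0.01 over all probe sets, while the range over the 12 ran from -1.51 to 3.81. This comparison shares its arrays with the pair of comparisons that chose the genes and is their sum, so the counts of members describe chosen genes.

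**Figure D1:**
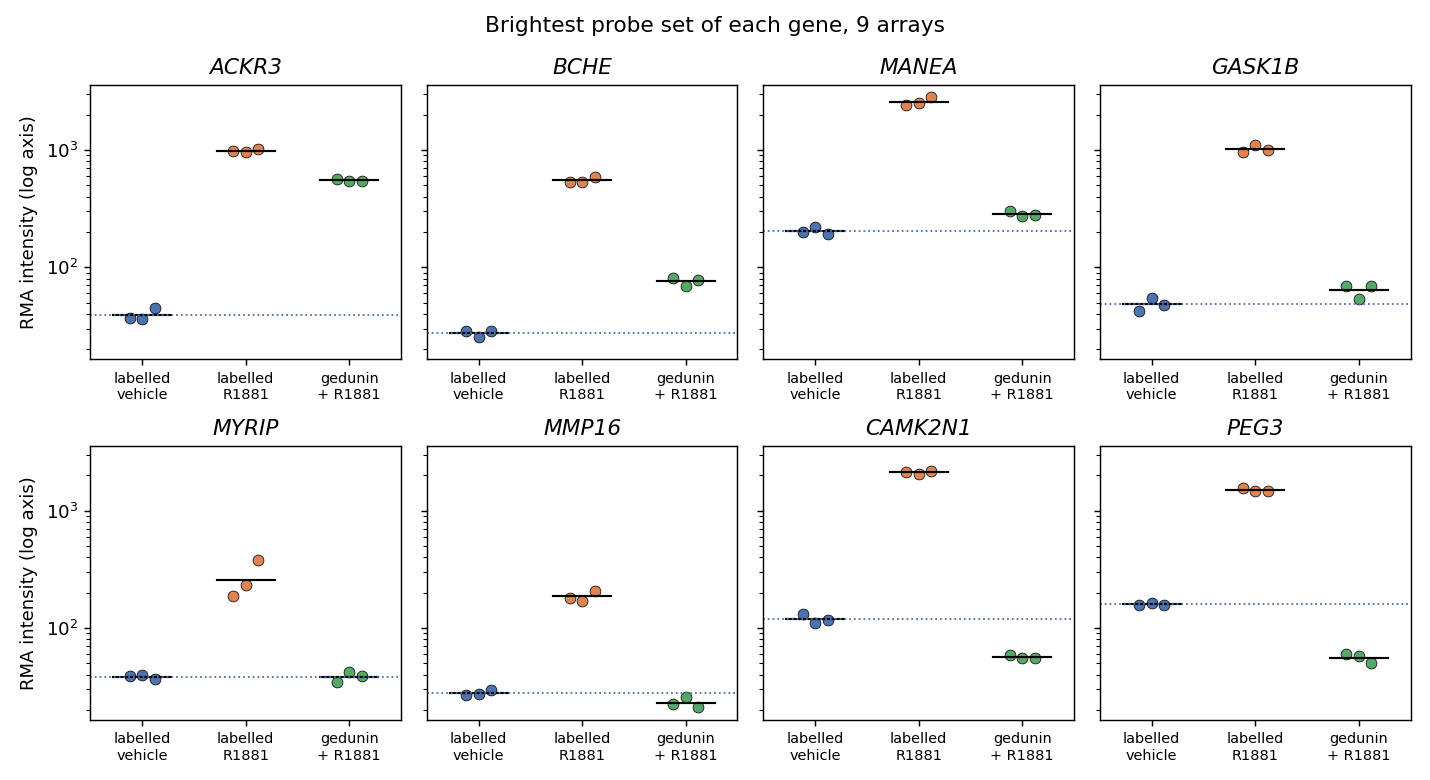
RMA intensity (log axis) of the brightest probe set of each gene on the 9 arrays, by group. Points are arrays, black bars are means of log2 values and the dotted line is the mean of the arrays labelled vehicle; ACKR3 and BCHE end above the line on the gedunin arrays, CAMK2N1 and PEG3 end below it.

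Values that chose the genes are given first as a description, without a test. For the brightest probe set of each gene, labelled R1881 minus labelled vehicle on the log2 scale ran from 2.73 to 4.66, with a median of 3.90. All 12 member probe sets had higher values on every array labelled R1881 than on any labelled vehicle, as did 19.8% of all probe sets (17.1% lay lower on every array, and limma called 27.0% in either direction). The log2 difference between gedunin and labelled R1881 arrays ran from -5.22 to -0.84, with a median of -3.09. All 12 lay lower on every gedunin array, as did 18.0% of all probe sets (16.6% lay higher on every gedunin array). Among 11963 genes, the 8 ranked 1, 2, 3, 5, 6, 7, 12 and 13 by the first difference, for ACKR3, GASK1B, BCHE, CAMK2N1, MANEA, PEG3, MMP16 and MYRIP in this order. By the second difference CAMK2N1, PEG3, GASK1B, MANEA and MMP16 held ranks 1 to 5, BCHE rank 7, MYRIP rank 9 and ACKR3 rank 153. The choice had no numeric limit. Genes beside the members in these ranks were UGT2B17 at 4.19, BARD1 at 3.20, UGT2B15 at 3.19 and DDC at 2.95 in the first difference, and UGT2B17 at -2.89 and DDC at -2.80 in the second.

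**Figure D2:**
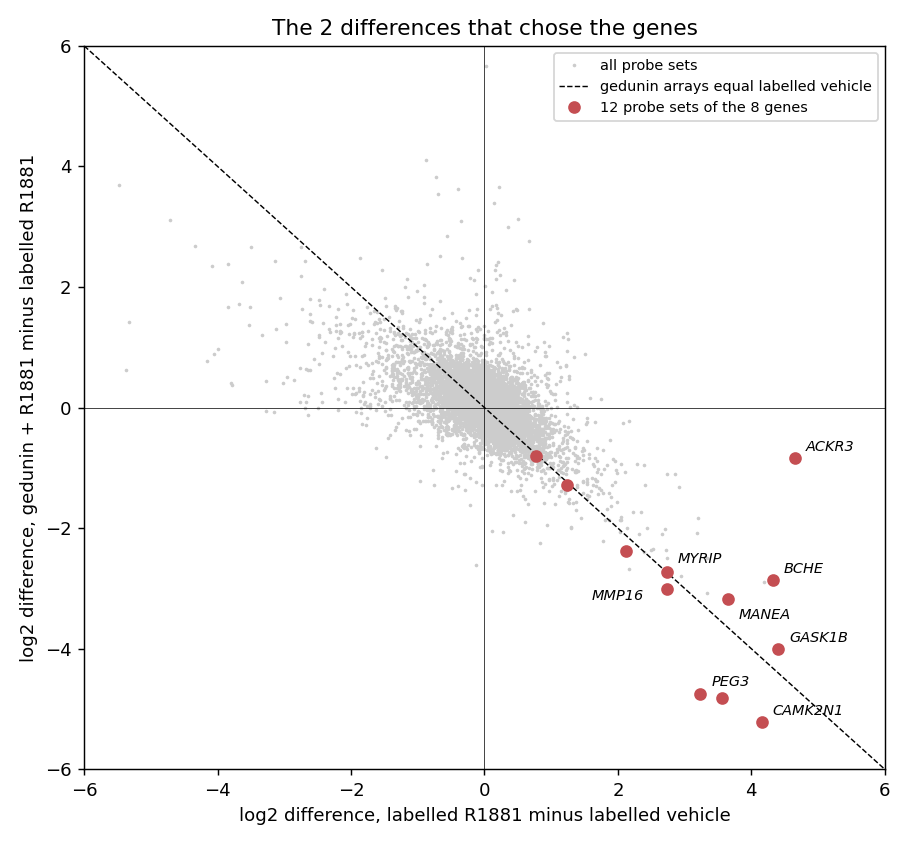
Log2 difference of gedunin + R1881 minus labelled R1881 (vertical) against labelled R1881 minus labelled vehicle (horizontal) for all probe sets (grey) and the 12 member probe sets (red). Both axes share the arrays labelled R1881, which alone gives a downward slope; on the dashed line the gedunin arrays equal the arrays labelled vehicle, with ACKR3 far above it and PEG3 and CAMK2N1 below it.

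For several of these genes RefSeq (GRCh38.p14) gives promoter windows, from 250 bases before to 50 bases after a transcript start. Windows were examined for 4 of the 8 genes, BCHE, GASK1B, MANEA and MYRIP, with 7 windows in all. ACKR3, CAMK2N1 and PEG3 had no window in the set used. MMP16 was left out before matching, so its promoter was not examined. Those of BCHE, GASK1B and MANEA are shown because these genes were high on the arrays labelled R1881, with the gedunin arrays stopping further above vehicle for BCHE than for GASK1B and MANEA. The MYRIP windows are described by their matches. Capitals mark exact matches on either strand to AGAACA (other strand TGTTCT), a hexamer bound by steroid receptors such as the androgen receptor, to TGACNNNGC, the site bound by NRF2, or to GAANNTTC, a pair of heat shock units.

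BCHE, chr3:165837374-165837673, minus strand: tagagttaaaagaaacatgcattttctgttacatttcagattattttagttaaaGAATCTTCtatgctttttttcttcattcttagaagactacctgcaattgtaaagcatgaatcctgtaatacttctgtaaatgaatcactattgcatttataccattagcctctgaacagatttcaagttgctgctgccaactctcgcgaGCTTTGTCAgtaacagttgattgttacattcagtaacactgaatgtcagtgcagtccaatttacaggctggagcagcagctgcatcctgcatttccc

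GASK1B, first window, chr4:158172324-158172623, minus strand: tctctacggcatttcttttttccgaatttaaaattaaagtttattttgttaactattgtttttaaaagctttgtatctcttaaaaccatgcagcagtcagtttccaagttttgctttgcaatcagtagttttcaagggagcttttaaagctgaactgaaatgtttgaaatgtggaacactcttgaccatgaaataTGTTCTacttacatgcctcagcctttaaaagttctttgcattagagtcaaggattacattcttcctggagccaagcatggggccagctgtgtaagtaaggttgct

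GASK1B, second window, chr4:158172976-158173275, minus strand: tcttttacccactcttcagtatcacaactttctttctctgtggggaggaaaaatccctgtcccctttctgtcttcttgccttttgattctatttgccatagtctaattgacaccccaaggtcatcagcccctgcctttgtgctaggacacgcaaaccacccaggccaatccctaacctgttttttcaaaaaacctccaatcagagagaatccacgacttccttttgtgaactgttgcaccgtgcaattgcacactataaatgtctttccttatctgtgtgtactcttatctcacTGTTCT

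MANEA, chr6:95577285-95577584, plus strand: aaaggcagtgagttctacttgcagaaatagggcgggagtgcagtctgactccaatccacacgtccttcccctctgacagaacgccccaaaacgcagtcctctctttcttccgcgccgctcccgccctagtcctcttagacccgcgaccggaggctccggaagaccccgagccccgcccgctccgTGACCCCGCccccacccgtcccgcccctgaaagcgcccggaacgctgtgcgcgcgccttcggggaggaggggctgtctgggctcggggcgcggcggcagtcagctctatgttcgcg

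Both GASK1B windows held 1 such hexamer, at position -55 of the first and 45 of the second, counted from the transcript start. The BCHE window held none of these, but 1 NRF2 match at -47 and 1 heat shock pair at -196. MANEA had 1 NRF2 match at -66, and so had 1 of the 3 MYRIP windows at -18. Among 35116 windows of the same length, 14.8% held the hexamer, 13.3% the NRF2 letters and 6.77% the heat shock pair. An E-box (CANNTG) was in 68.7% of all windows and in those of BCHE, GASK1B and MYRIP, but not of MANEA. The motifs do not overlap in the windows printed. The BCHE and GASK1B windows were poor in G and C (36.7% for BCHE, 35.7% and 43.7% for GASK1B) beside a median of 58.7% over all windows and 67.3% for MANEA. A match describes letters in a window and is no measured binding.

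Among the receptor and the secreted enzyme, ACKR3 came back least. ACKR3 is an atypical chemokine receptor that binds CXCL12 and CXCL11 and works through arrestins and ligand uptake rather than G proteins. Its intensity was 37.3, 36.0 and 44.8 on the arrays labelled vehicle, 989.1, 956.7 and 1019.7 on those labelled R1881, and 561.8, 546.3 and 546.6 on the gedunin arrays. The gedunin arrays lay between both other groups with no overlap. They were 14.1-fold above the arrays labelled vehicle (log2 difference 3.81 ± 0.08, SE, 95% interval 3.65 to 3.98, adjusted p = 1.77e-11), higher in 3 of 3. The share of the log2 difference between labelled R1881 and labelled vehicle that the gedunin arrays took back was 18.1% ± 0.497 (SD over 3 gedunin arrays). On the linear scale the share was 46.0% ± 0.937, so the scale sets the size of this share but not that it stopped short. All such shares take the labels as given. Were the labels of these groups exchanged, the distance from labelled vehicle that remained, 81.9% of the log2 difference for ACKR3, would be the distance moved from the androgen level. The mean on the arrays labelled vehicle, 39.4, lay under 52.4, the lowest array median, taken here as dim. Folds against such means are approximate, for BCHE, GASK1B, MMP16 and MYRIP too.

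BCHE encodes butyrylcholinesterase, a secreted enzyme that splits choline esters. Its intensity was 28.6, 25.4 and 28.9 on the arrays labelled vehicle and 529.0, 537.3 and 587.9 on those labelled R1881. On the gedunin arrays it was 80.9, 69.9 and 77.4, again between the others with no overlap. This was 2.76-fold above the vehicle level (log2 difference 1.46 ± 0.07, interval 1.30 to 1.62, adjusted p = 1.88e-08), higher in 3 of 3. BCHE took back 66.2% ± 2.52 of the log2 difference and 90.7% ± 1.08 of the linear one. BCHE therefore came back further than ACKR3 on both scales, and the intervals of their distance from vehicle did not overlap.

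The Golgi enzymes MANEA and GASK1B came close to the vehicle level. MANEA is the Golgi endo-alpha-mannosidase, which trims glucosylated mannose from N-glycans. It measured 201.8, 222.0 and 191.2 on the arrays labelled vehicle and 2423.3, 2495.3 and 2807.4 on those labelled R1881. The gedunin arrays gave 302.2, 273.0 and 278.8, all above the 3 vehicle arrays, at 1.39-fold (log2 difference 0.48 ± 0.08, interval 0.31 to 0.64, adjusted p = 0.000425). MANEA took back 87.0% ± 2.12 of the log2 difference and 96.6% ± 0.652 of the linear one. None of its 3 group means lay under the lowest array median, so this small remainder was measured above that level.

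GASK1B, once named FAM198B, encodes a protein of the Golgi related to secretory pathway kinases. It measured 42.2, 55.2 and 48.1 on the arrays labelled vehicle, 963.8, 1093.6 and 1008.7 on those labelled R1881, and 69.7, 54.0 and 68.7 on the gedunin arrays. One gedunin array lay within the vehicle range and the other two above it. The difference of 0.40 ± 0.11 (interval 0.16 to 0.64) passed with an adjusted p of 0.0178. It did not pass without vehicle replicate 1 (0.31, adjusted p = 0.0882), vehicle replicate 3 (0.40, adjusted p = 0.0509), gedunin replicate 1 (0.34, adjusted p = 0.0839) or gedunin replicate 3 (0.35, adjusted p = 0.0789). GASK1B took back 90.9% ± 4.70 of the log2 difference, near MANEA, whose interval overlaps its own.

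**Figure D3:**
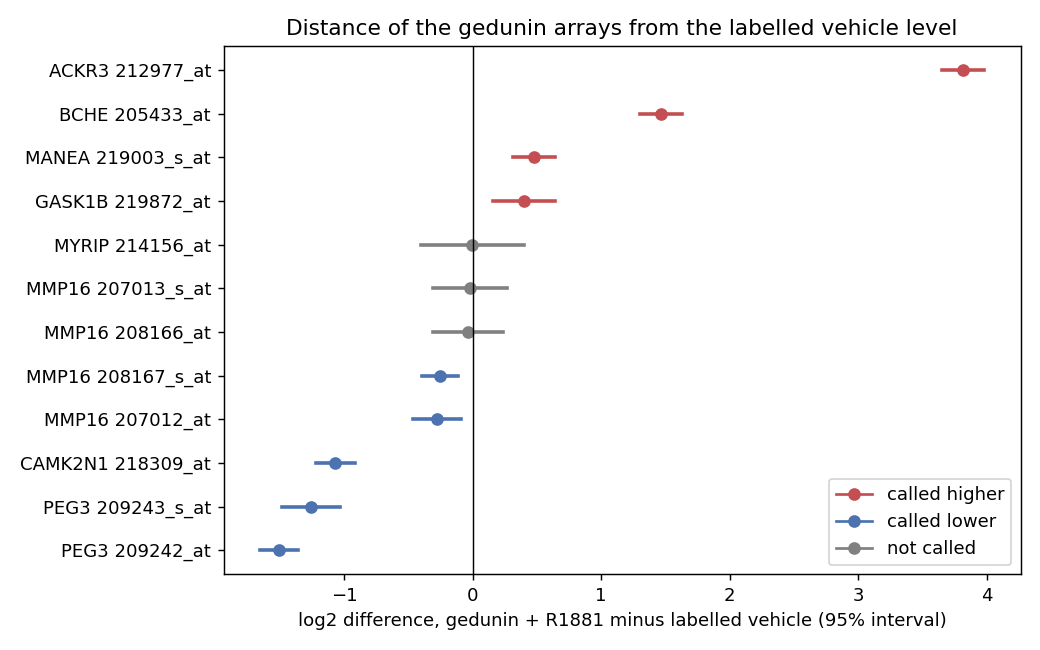
Log2 difference of gedunin + R1881 minus labelled vehicle arrays for the 12 member probe sets, with 95% intervals from limma; 0 is the level of the arrays labelled vehicle. Red probe sets were called higher, blue lower and grey not called; ACKR3 stands at 3.81 and the PEG3 probe set furthest below at -1.51.

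MMP16, the other gene of the cell surface, encodes a membrane-anchored matrix metalloproteinase. Its 4 probe sets had the same order of groups but different sizes, from 1.71-fold to 6.67-fold higher on the arrays labelled R1881. The brightest measured 27.1, 27.2 and 29.5 on the arrays labelled vehicle, 182.0, 171.0 and 207.0 on those labelled R1881, and 22.7, 25.7 and 21.1 on the gedunin arrays. All 3 gedunin arrays lay below the 3 vehicle arrays, by -0.28 ± 0.09 (interval -0.46 to -0.09, adjusted p = 0.0340). A second probe set, at 24.9, 24.8 and 23.0, 103.3, 102.0 and 111.1, and 21.0, 18.9 and 21.0 in the same order of groups, differed by -0.25 ± 0.06 (adjusted p = 0.0112). The other two, the dimmest, differed by -0.02 ± 0.13 and -0.04 ± 0.12 (adjusted p = 0.938 and 0.898), and their arrays overlapped. Every vehicle and gedunin mean of MMP16 was dim in this sense, and its place below vehicle rests on such values. The call of the brightest probe set was lost with an offset of 16 added before log2 (-0.17, adjusted p = 0.10). It was also lost without vehicle replicate 1 (-0.30, adjusted p = 0.0614), 2 (-0.29, adjusted p = 0.0592) or 3 (-0.24, adjusted p = 0.127), or gedunin replicate 1 (-0.26, adjusted p = 0.101) or 3 (-0.21, adjusted p = 0.144). The second probe set lost its call without gedunin replicate 2 (-0.20, adjusted p = 0.0550).

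On the gedunin arrays MYRIP, a protein that links RAB27A on secretory organelles to myosin motors, lay at the level of labelled vehicle. It measured 39.0, 40.0 and 36.7 on the arrays labelled vehicle and 34.8, 41.9 and 38.9 on the gedunin arrays, and these groups overlapped. The log2 difference was -0.0036 ± 0.18 with an interval of -0.40 to 0.40 (adjusted p = 0.994), so differences within that interval are not excluded. The width comes from 1 spread shared by all 9 arrays, mostly from the arrays labelled R1881. The log2 SD was 0.06 on vehicle and 0.14 on gedunin arrays. The arrays labelled R1881 gave 188.5, 234.7 and 378.3, the widest spread of the 8 genes in that group on the log2 scale (SD 0.51). Both low groups of MYRIP had means under the lowest array median.

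The inhibitor CAMK2N1 and the imprinted gene PEG3 passed the vehicle level. CAMK2N1 encodes a small protein that inhibits the calcium/calmodulin-dependent kinase CaMKII. It measured 131.3, 110.4 and 116.5 on the arrays labelled vehicle, 2130.1, 2039.5 and 2194.6 on those labelled R1881, and 59.0, 55.9 and 55.7 on the gedunin arrays. Every gedunin array lay below every vehicle array, by 2.10-fold (log2 difference -1.07 ± 0.07, interval -1.22 to -0.92, adjusted p = 1.48e-07). The gedunin arrays took back 126% ± 1.11 of the log2 difference and 103% ± 0.0919 of the linear one. The part beyond the vehicle level was therefore small on the linear scale. CAMK2N1 had no group mean under the lowest array median, though its gedunin mean of 56.8 was close to it.

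PEG3 is an imprinted gene, expressed from the paternal copy, that encodes a zinc finger protein. Its brighter probe set measured 157.3, 162.6 and 157.3 on the arrays labelled vehicle, 1573.4, 1460.0 and 1464.3 on those labelled R1881, and 60.0, 57.3 and 50.7 on the gedunin arrays. This was 2.85-fold below vehicle, lower in 3 of 3 (log2 difference -1.51 ± 0.07, interval -1.66 to -1.36, adjusted p = 5.27e-09). The gedunin mean of 56.0 was close to the lowest array median of 52.4. The other PEG3 probe set measured 52.7, 53.8 and 53.8, then 599.2, 645.7 and 638.2, then 21.4, 19 and 27.3. It gave -1.26 ± 0.10 (interval -1.48 to -1.03, adjusted p = 1.43e-06), with its gedunin mean under the lowest array median. Both probe sets of PEG3 thus placed the gedunin arrays below vehicle, taking back 147% ± 3.86 and 135% ± 7.55 of the log2 difference. Each of these probe sets had a pair of equal deposited values among the arrays labelled vehicle. The probe set annotated to both PEG3 and ZIM2 showed none of this, at means of 84.5, 85.9 and 81.0 (log2 difference from vehicle -0.06 ± 0.06, adjusted p = 0.570), and cannot be given to either gene.

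From furthest above to furthest below the vehicle level, the genes ran ACKR3, BCHE, MANEA, GASK1B, MYRIP, MMP16, CAMK2N1 and PEG3. The 95% intervals of neighbours overlapped for MANEA and GASK1B, GASK1B and MYRIP, and MYRIP and MMP16. The MYRIP interval was widened by the spread of its labelled R1881 arrays. They did not overlap between ACKR3 and BCHE, BCHE and MANEA, MMP16 and CAMK2N1, or CAMK2N1 and the brighter PEG3 probe set. The other PEG3 probe set (interval -1.48 to -1.03) overlapped CAMK2N1 (-1.22 to -0.92), so the order of these genes rests on 1 probe set. Of the 12 probe sets, 3 had all gedunin arrays above all vehicle arrays and 5 had all below, where 17.8% and 17.7% of all probe sets did. By the brightest probe set of each gene these were 3 and 3 of 8.

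Other probe sets with a large first difference gave a frame for these positions. Beside the members, 29 probe sets of 21 genes were at least 4-fold higher on the arrays labelled R1881 than on those labelled vehicle. On the gedunin arrays 19 of them were called above vehicle, 1 below and 9 not called, against 4, 5 and 1 of the 10 member probe sets past the same fold. These 5 belong to CAMK2N1, PEG3 and MMP16. By the brightest probe set of each gene, 4 of 8 members were above, 3 below and 1 not called. Some of the 29 share a gene too, such as GRB10 and CTBP1, so these counts are not of separate genes. The share of the log2 difference taken back ran from 10.7% to 124% with a median of 78.5%, and 2 of the 29 passed 100%. ANP32E and MACIR came back least, at 10.7% and 12.1%, less than ACKR3. SEMA6A was the 1 probe set called below vehicle (-0.53 ± 0.10, adjusted p = 0.00118), at 124%. Its vehicle and gedunin means, 32.2 and 22.4, lay under the lowest array median. Its share on the linear scale was 109%, beside 103% for CAMK2N1 and 108% for the brighter PEG3 probe set, so the order of these genes by share turns with the scale. The 29 were taken by the first difference alone. The choice of members also favoured genes with large differences between gedunin and labelled R1881 arrays, which favours positions below vehicle. The counts above and below vehicle and these shares are therefore a description.

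**Figure D4:**
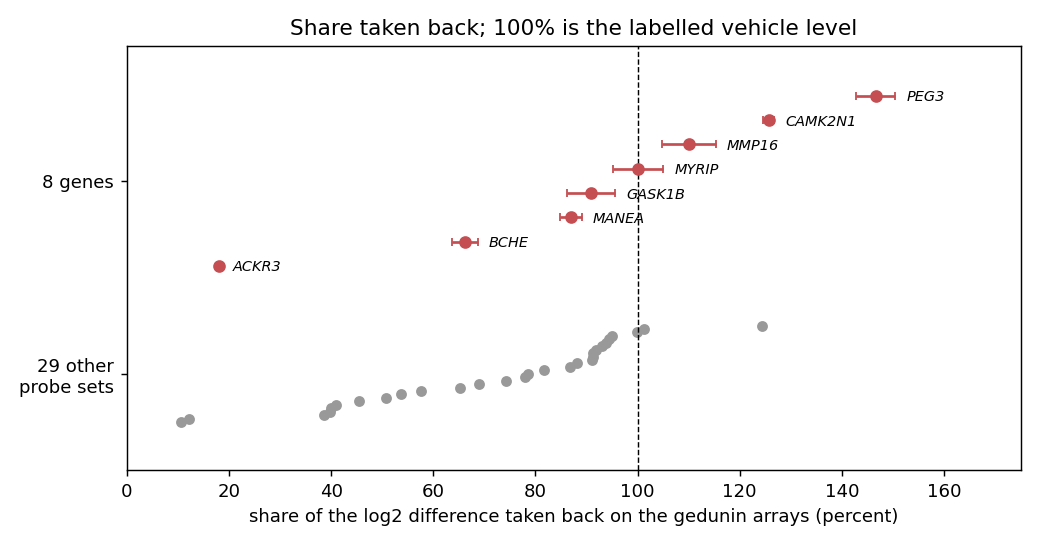
Share of the log2 difference between labelled R1881 and labelled vehicle arrays that the gedunin arrays took back, for the 8 genes (red, mean and SD over 3 gedunin arrays) and 29 other probe sets at least 4-fold higher on labelled R1881 (grey, in order). The dashed line at 100% is the labelled vehicle level; the genes run from 18.1% for ACKR3 to 147% for PEG3, or from 81.9% to -46.6% if the labels of these groups were exchanged.

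The genes whose profile over the 9 arrays was most like that of a member were drawn from 599 genes with a 2-fold range of group means. Likeness was the mean absolute log2 difference of centred profiles. UGT2B17, which conjugates androgens to glucuronic acid, was nearest to BCHE at 0.12, followed by UGT2B15 at 0.42. These UGT2B genes have near-identical paralogs that probe sets may not separate. DDC, aromatic L-amino acid decarboxylase, and UGT2B17 were nearest to MANEA at 0.25 and 0.30. UGT2B17 and DDC were nearest to GASK1B at 0.45 and 0.59. DDC and GRB10, an imprinted adaptor gene, were nearest to MMP16 at 0.19 and 0.23, and also to MYRIP, at 0.22 for DDC and 0.21 for GRB10. ACKR3, CAMK2N1 and PEG3 had no such near match. The closest were BARD1 and UGT2B15 for ACKR3 at 0.87 and 0.94, DDC and GRB10 for CAMK2N1 at 0.85 and 0.96, and the same pair for PEG3 at 0.80 and 0.89. GRB10 (352.6) and UGT2B15 (205.6) each had 3 equal deposited values on the gedunin arrays.

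Of 11 measured partners of ACKR3, 1 was higher and 0 lower on labelled R1881 than labelled vehicle arrays, where 14.8% and 12.2% of all probe sets were. None was called between gedunin and labelled R1881 arrays (limma, 1 at an unadjusted p under 0.05), where 24.3% of all probe sets were. Between gedunin and vehicle arrays 0 of the 11 were higher and 1 lower, near the 12.9% and 10.6% of all probe sets. This 1 was CXCR4, the signalling receptor of CXCL12 (-0.28 ± 0.09, adjusted p = 0.0337). The median of this list against vehicle was -0.09. All 5 measured genes of the cholinesterase system, ACHE among them, lay under the lowest array median in every group, and 0 were called on the gedunin arrays against either other group (limma, 1 at an unadjusted p under 0.05 in each of these comparisons). Of all probe sets, 24.3% were called against labelled R1881 and 23.5% against vehicle. COLQ, which anchors acetylcholinesterase, was higher on labelled R1881 than on vehicle arrays (0.26 ± 0.08, adjusted p = 0.0210), as BCHE was in value, and was 1 of 5 where 14.8% of all probe sets were higher.

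Calmodulin kinases included 5 measured genes. CAMKK2, which activates AMPK, was lower on labelled R1881 than on vehicle arrays (-0.67 ± 0.07, adjusted p = 7.26e-06) and differed by -0.02 ± 0.07 between gedunin and labelled R1881 arrays (adjusted p = 0.889). CAMK1 was at -0.63 ± 0.09 (adjusted p = 0.000155) in the first of these comparisons and 0.02 ± 0.09 (adjusted p = 0.907) in the other. These were 2 of 5 genes lower than vehicle on labelled R1881 and on gedunin arrays, where 12.2% and 10.6% of all probe sets were. Between gedunin and labelled R1881 arrays 0 of 5 were called (limma, also 0 at an unadjusted p under 0.05), where 24.3% of all probe sets were.

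Of 15 measured imprinted genes, 2 were higher and 2 lower on the gedunin than on the vehicle arrays, with a median of -0.00029. These counts were near the 12.9% and 10.6% of all probe sets. MEST, a paternally expressed gene, was higher on labelled R1881 than on vehicle arrays (0.41 ± 0.11, adjusted p = 0.0121) and lower on gedunin than on labelled R1881 arrays (-0.58 ± 0.11, adjusted p = 0.00139). GRB10 had the same directions with larger differences. Its brightest probe set measured 298.6 ± 11.8 on vehicle, 1996 ± 49.7 on labelled R1881 and 352.6 on gedunin arrays, where its deposited values were equal. That probe set stopped 0.24 ± 0.05 above vehicle (adjusted p = 0.00484). The other GRB10 probe sets past the 4-fold limit were not called against vehicle, at 0.13, 0.14 and 0.0036 (adjusted p = 0.197, 0.207 and 0.982). PHLDA2 went the other way, lower by -0.41 ± 0.08 on labelled R1881 (adjusted p = 0.00201) and 0.60 ± 0.08 above vehicle on the gedunin arrays (adjusted p = 0.000116). IGF2R (-0.24 ± 0.06, adjusted p = 0.0111) and CDKN1C (-0.39 ± 0.09, adjusted p = 0.00564) lay below vehicle. The CDKN1C means on vehicle, labelled R1881 and gedunin arrays, 32.5, 27.8 and 24.8, all lay under the lowest array median.

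Among N-glycan trimming and folding genes, 6 of 15 were lower and 1 higher on labelled R1881 than on vehicle arrays, where 12.2% and 14.8% of all probe sets were. On gedunin against labelled R1881 arrays 6 were higher and 1 lower, where 12.4% and 11.9% of all probe sets were. Against vehicle 0 were higher and 2 lower, where 12.9% and 10.6% of all probe sets were, with a median of -0.04. EDEM3, which helps mark misfolded glycoproteins for disposal, measured 283 ± 17.5, 103 ± 13.7 and 177 ± 5.48 on vehicle, labelled R1881 and gedunin arrays, and stopped at -0.68 ± 0.09 (adjusted p = 6.23e-05). EDEM1 stopped at -0.30 ± 0.08 (adjusted p = 0.0165). None of the 3 measured secretory pathway kinases, a family related to GASK1B, was called between gedunin and vehicle arrays (limma, 1 at an unadjusted p under 0.05). Of all probe sets, 23.5% were called in that comparison. DIPK1A of this list was lower on labelled R1881 than on vehicle arrays (-0.78 ± 0.09, adjusted p = 1.44e-05) and higher on gedunin than on labelled R1881 arrays (0.55 ± 0.09, adjusted p = 0.000340).

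None of the 13 membrane-type metalloproteinases and inhibitors was called between vehicle and either other group (limma, 2 for labelled R1881 and 1 for gedunin at an unadjusted p under 0.05). Of all probe sets, 27.0% were called for labelled R1881 and 23.5% for gedunin. Between gedunin and labelled R1881 arrays 1 was higher and 1 lower, where 12.4% and 11.9% of all probe sets were. Organelle transport genes differed in direction. RAB27A, the partner of MYRIP, was lower on labelled R1881 than vehicle arrays by -1.98 ± 0.09 (adjusted p = 4.03e-09) and stayed -1.77 ± 0.09 below vehicle on the gedunin arrays (adjusted p = 2.13e-08). MLPH, which also binds RAB27A, was at -0.72 ± 0.06 against vehicle (adjusted p = 1.20e-06). EXPH5 (1.38 ± 0.09, adjusted p = 1.14e-07) and MYO5A (0.66 ± 0.07, adjusted p = 1.78e-05) were above it, so of 8 genes 2 were higher and 2 lower, where 12.9% and 10.6% of all probe sets were. SYTL2, another RAB27 effector, was higher on labelled R1881 than on vehicle arrays (0.47 ± 0.06, adjusted p = 7.12e-05) and lower on gedunin than on labelled R1881 arrays (-0.33 ± 0.06, adjusted p = 0.00141). Its means on vehicle, labelled R1881 and gedunin arrays, 21.8, 30.3 and 24.1, all lay under the lowest array median. COLQ, MEST, DIPK1A, SYTL2 and CHGB were named after their values were seen.

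Of 11 other measured genes listed as androgen-repressed, 8 were higher and 2 lower on labelled R1881 than on vehicle arrays, where 14.8% and 12.2% of all probe sets were. On gedunin against labelled R1881 arrays 9 were lower and 1 higher, where 11.9% and 12.4% of all probe sets were. On gedunin against vehicle arrays 7 were higher and 2 lower (12.9% and 10.6% of all probe sets), with a median of 0.37. BARD1 (1.36 ± 0.12, adjusted p = 2.36e-06), UGT2B17 (1.30 ± 0.09, adjusted p = 2.09e-07) and UGT2B15 (1.11 ± 0.07, adjusted p = 1.35e-07) stopped short of vehicle like BCHE. CLU, which encodes the extracellular chaperone clusterin, had another course. It measured 82.1 ± 10.6 on vehicle, 94.8 ± 3.37 on labelled R1881 and 505 ± 39.8 on gedunin arrays, 2.63 ± 0.09 above vehicle (adjusted p = 6.24e-10). These genes were listed with earlier results of these data known, so their counts are no independent evidence.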

How the data were processed

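RNA of 9 LNCaP cultures was extracted with Trizol and biotinylated cRNA was hybridised to Affymetrix arrays, per the labels' protocols. The authors deposited linear intensity values, 1 for each probe set of an array; RMA is named in the submitters' processing notes, and its version is not given in the sources used here. Array medians lay between 52.4 and 54.5, since RMA makes arrays alike, so a change of total RNA cannot be seen. Precision is limited by 3 arrays per group.

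Intensities were taken to log2 and 62 control probe sets were left out. Of the rest, 19064 had 1 gene symbol, 1043 several and 2108 none; symbols were compared with RefSeq genes (GRCh38.p14), where 12 probe sets had no match and 0 symbols changed. All 22215 probe sets were fitted together in limma 3.58.1 (R 4.3.3), with 1 coefficient per group over 9 arrays, contrasts and eBayes without trend (prior df 6.08). Tests were two-sided, Benjamini-Hochberg adjusted, at a threshold of 0.05. Errors of log2 differences are standard errors from limma. The script was tested on simulated data.

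Members and gene lists were chosen with earlier results of these data known. Named are all member probe sets, the 2 genes most like each member, up to 4 called genes per list with the largest difference from vehicle, and 4 androgen-induced check genes. Likeness used the brightest probe set of a gene. Genes listed but not matched to a probe set with 1 symbol are not analysed here. The share taken back is the difference of labelled R1881 and gedunin means divided by that of labelled R1881 and labelled vehicle means. Alternatives covered scaling, an offset, a filter on dim probe sets, the variance model, the arrays fitted, the probe sets fitted, a replicate block and leaving out each array.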

Additional observations from a re-analysis of the deposited data

How the results depend on the processing

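The calls of ACKR3, BCHE, MANEA, CAMK2N1 and both PEG3 probe sets against vehicle kept their direction and side of the threshold under every alternative run. Fitting 1 probe set per gene, fewer features by construction, gave 3624 calls (2000 higher, 1624 lower) between labelled R1881 and vehicle in place of 6007 (3298 and 2709). It gave 3277 (1676 and 1601) between gedunin and labelled R1881 in place of 5406 (2753 and 2653), and 3219 (1800 and 1419) between gedunin and vehicle in place of 5223 (2867 and 2356). Of the members, 3 probe sets were then called lower, since 2 probe sets of PEG3 and MMP16 drop out. An offset of 16 left 19 of the 29 other probe sets past the 4-fold limit, with 0 called below vehicle and 4 not called. Without 1 array in turn, 5 to 11 of these were not called (5 without labelled R1881 replicate 3), and the members called numbered 3 to 4 higher and 4 to 5 lower. Values near 0 changed sign without a call: MYRIP was at 0.00048 with arrays centred on their medians and ran from -0.067 to 0.068 without 1 array in turn, and the 2 dimmest MMP16 probe sets ran from -0.075 to 0.047 and from -0.096 to 0.0083. Replicate numbers did not clearly pair the arrays. Residuals of same-numbered arrays correlated at -0.10 to 0.14, over 0.1 in 2 of 9 pairs, and the best partner had the same number in 2 of 9. Both pairs over 0.1 lay between labelled vehicle and labelled R1881 arrays, where same-numbered arrays correlated at 0.12, 0.14 and 0.05. Against the gedunin arrays the order was shifted. Replicates 1, 2 and 3 correlated most with gedunin replicates 2, 3 and 1. These values were 0.12, 0.09 and 0.06 for labelled vehicle and 0.16, 0.05 and 0.13 for labelled R1881. The replicate block joined equal numbers, and a block in the shifted order was not fitted. With a replicate block 5897 probe sets were called between labelled R1881 and vehicle, 5297 between gedunin and labelled R1881 and 5107 between gedunin and vehicle, with 4 and 5 member probe sets as before. Dim values limit MMP16, MYRIP, the vehicle level of ACKR3, BCHE and GASK1B, and the gedunin level of the dimmer PEG3 probe set. The gedunin means of CAMK2N1 and the brighter PEG3 probe set were close to the lowest array median.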
